A study of Mus musculus with 6 samples.

Results

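The genes of the transforming growth factor beta (TGF-beta) ligands, their receptors and the latent TGF-beta binding proteins were examined in tissue from below and above the mouse embryonic aorta. They are 10 genes, namely the ligands Tgfb1, Tgfb2 and Tgfb3, the receptors Tgfbr1, Tgfbr2 and Tgfbr3, and the latent binders Ltbp1, Ltbp2, Ltbp3 and Ltbp4. The members were taken by gene symbol, and each was found once among 24973 probe sets, of which 24015 carry a gene symbol. Ventral tissue (3 arrays) lay underneath the dorsal aorta and dorsal tissue (3 arrays) lay between the aortic roof and the notochord. Both were cut by laser microdissection from cryosections of unfixed C57Bl/6 embryos at embryonic day 11.5, with no genetic change or treatment in either tissue. The labels call the 3 arrays of each tissue biological replicates and state that each embryo gave both tissues, without the number of embryos behind one array. Amplified RNA was hybridised to Affymetrix Mouse Gene ST arrays, and levels are log2 values on which a difference of 1 is a doubling. Because each probe set binds with its own strength, levels are compared between tissues for one gene and not between genes.

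TGF-beta ligands are secreted as precursors whose propeptide stays wrapped around the mature ligand and holds it inactive. Latent binding proteins attach to this propeptide and fix the complex to fibrillin and fibronectin in the matrix, from which integrins or proteases release the ligand. Free ligand binds the type II receptor Tgfbr2, which phosphorylates the type I receptor Tgfbr1, and Tgfbr1 in turn phosphorylates Smad2 and Smad3. The pathway is known for driving smooth muscle differentiation and matrix production around embryonic vessels.

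Of the 10 genes, 9 lay above a filter at the median level of all probe sets (4.52) and were tested among 12028 genes. Tgfb2 and Ltbp4 had the clearest differences, with levels on all 3 ventral arrays above those on all 3 dorsal arrays, 2.46-fold and 1.89-fold in the means. Ltbp1 and Ltbp3 also showed ventral arrays above dorsal arrays without overlap, at 1.62-fold and 1.35-fold. For Tgfb1, Tgfb3, Tgfbr1, Tgfbr2 and Tgfbr3 the tissues overlapped. In limma with the replicate number as a block, 0 of the 9 genes passed an adjusted p of 0.05, where 0.515% of all genes tested did, and 0 passed without the block. At an unadjusted p of 0.05, 4 of the 9 lay below it, against 10.7% of all genes. The ventral arrays lay above all dorsal arrays for 4 of the 9 and below them for 0, where these shares were 7.5% and 7.88% of all genes. The filter bears on this count. Ltbp4 had a dorsal mean below the filter level (4.47), and Ltbp2, which the filter left out, had all ventral arrays below its dorsal ones. The tissues did not overlap for 3 of 8 members with the filter at the 60th percentile, and for 5 of 10 with no filter. The median ventral minus dorsal difference of the 9 was 0.43, beside −0.01 over all genes tested, and it was 0.16 without replicate 3.

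The promoters of the 4 genes whose ventral arrays all lay above the dorsal ones are shown because these genes had the same order of tissues, though none passed the threshold. Promoter entries were found for 8 of the 10 members in a RefSeq table of GRCm38.p6, with 12 start sites in all. The 250 bases before the start site that lies farthest upstream are given 5′ to 3′ on the gene's strand, and the arrays do not tell which start was used. Capitals mark SMAD boxes (CAGAC, the core bound by Smad3 and Smad4), E-boxes (CANNTG) and a cyclic AMP response element (TGACGTCA), searched on both strands.
Tgfb2 (chr1:186705990-186706239, minus strand): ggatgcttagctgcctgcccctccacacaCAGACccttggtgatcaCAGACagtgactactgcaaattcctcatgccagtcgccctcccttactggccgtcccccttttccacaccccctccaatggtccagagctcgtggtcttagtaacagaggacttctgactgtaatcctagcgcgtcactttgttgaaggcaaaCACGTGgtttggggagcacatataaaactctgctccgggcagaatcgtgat
Ltbp1 (chr17:75005279-75005528, plus strand): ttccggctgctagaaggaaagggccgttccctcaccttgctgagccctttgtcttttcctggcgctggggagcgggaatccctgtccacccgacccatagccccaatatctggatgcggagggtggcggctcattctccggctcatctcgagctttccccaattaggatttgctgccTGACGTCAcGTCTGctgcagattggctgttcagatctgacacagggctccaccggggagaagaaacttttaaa
Ltbp3 (chr19:5740650-5740899, plus strand): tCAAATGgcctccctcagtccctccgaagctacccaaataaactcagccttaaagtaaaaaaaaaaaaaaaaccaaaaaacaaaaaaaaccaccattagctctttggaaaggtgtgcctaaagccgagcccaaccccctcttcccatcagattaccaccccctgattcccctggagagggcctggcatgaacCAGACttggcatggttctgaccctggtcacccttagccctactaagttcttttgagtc
Ltbp4 (chr7:27337613-27337862, minus strand): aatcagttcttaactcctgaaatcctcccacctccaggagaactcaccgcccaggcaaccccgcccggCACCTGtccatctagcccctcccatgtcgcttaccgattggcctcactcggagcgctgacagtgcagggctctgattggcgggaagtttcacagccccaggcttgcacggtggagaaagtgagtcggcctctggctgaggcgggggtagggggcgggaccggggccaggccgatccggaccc
Tgfb2 held 2 SMAD boxes, which begin 221 and 204 bases before the start, an E-box at 51 bases and a TATA box (TATAAA) at 31 bases before it. Ltbp1 held a cyclic AMP response element at 73 bases, with 1 base between it and a SMAD box at 64 bases. The Ltbp3 window held 1 SMAD box and 1 E-box. The Ltbp4 window held 1 E-box, no SMAD box, and 3 GC boxes (GGGCGG). Among all 32851 RefSeq windows of this length, 42.2% held a SMAD box, 66.2% an E-box, 1.55% a cyclic AMP response element, 12.4% the TATA box and 32.7% a GC box. Letters for an AP-1 site (TGANTCA, in 6.75% of windows) and a GATA site (AGATAA, in 9.99%) were not in these 4 windows. Such matches describe the sequence and do not show that a factor binds there.

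Tgfb2 encodes a ligand that many mesenchymal cells of the embryo secrete, and it depends on the coreceptor Tgfbr3 for efficient receptor binding. Its level was 8.14, 7.78 and 8.32 on ventral arrays 1 to 3, against 6.79, 7.08 and 6.47 on dorsal arrays 1 to 3. The lowest ventral array lay well above the highest dorsal array, and each ventral array exceeded the dorsal array of its number. The mean was 8.08 ± 0.28 in ventral and 6.78 ± 0.31 in dorsal tissue (SD, n = 3 each). In limma the ventral minus dorsal difference was 1.30 ± 0.25 (SE, 95% interval 0.69 to 1.91; adjusted p = 0.118). Without the block its standard error was 0.22 and limma's adjusted p was 0.0650. This was the 100th highest difference among the 12028 genes tested. Arrays of equal number are called pairs here, though the labels do not tie the numbers to embryos. Pair 2 had the smallest difference (0.70), and pairs 1 and 3 differed by 1.35 and 1.86.

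Tgfb1 encodes the ligand that is abundant in blood cells and endothelium. It stood at 5.89, 5.58 and 6.76 on ventral arrays, against 5.47, 5.69 and 5.37 on dorsal arrays. Ventral array 3 stood apart from all others, while ventral array 2 lay within the dorsal range. The difference was 0.57 ± 0.30 (SE, 95% interval −0.15 to 1.28; limma adjusted p = 0.572), and it was 0.16 without replicate 3 and 0.91 without replicate 2. Summed linear levels of the endothelium markers (12 of 12 on the array) were 787, 1043 and 1147 on ventral arrays 1 to 3. On dorsal arrays 1 to 3 they were 624, 957 and 606. This sum was highest on ventral array 3. Cdh5, Kdr, Tek, Emcn and Esam also had their highest level there, but Pecam1, Tie1, Cldn5, Sox17, Sox18, Erg and Gja4 did not. The summed macrophage markers were 845, 746 and 639 on ventral arrays, against 628, 693 and 455 on dorsal arrays. That sum was lowest on ventral array 3 among the ventral arrays, though Cx3cr1, C1qa, Mrc1, Lyve1 and Timd4 did not have this order. The part of these cells in the Tgfb1 values was not tested.

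Tgfb3 encodes the ligand best known from palate fusion. Its level was 6.21, 6.19 and 6.54 on ventral arrays, against 7.19, 6.44 and 5.90 on dorsal arrays. The dorsal arrays spread on both sides of the ventral ones. The difference was −0.20 ± 0.31 (SE, 95% interval −0.94 to 0.55; limma adjusted p = 0.890), and its sign turned without replicate 1 (0.19), while it was −0.61 without replicate 3.

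**Figure D1:**
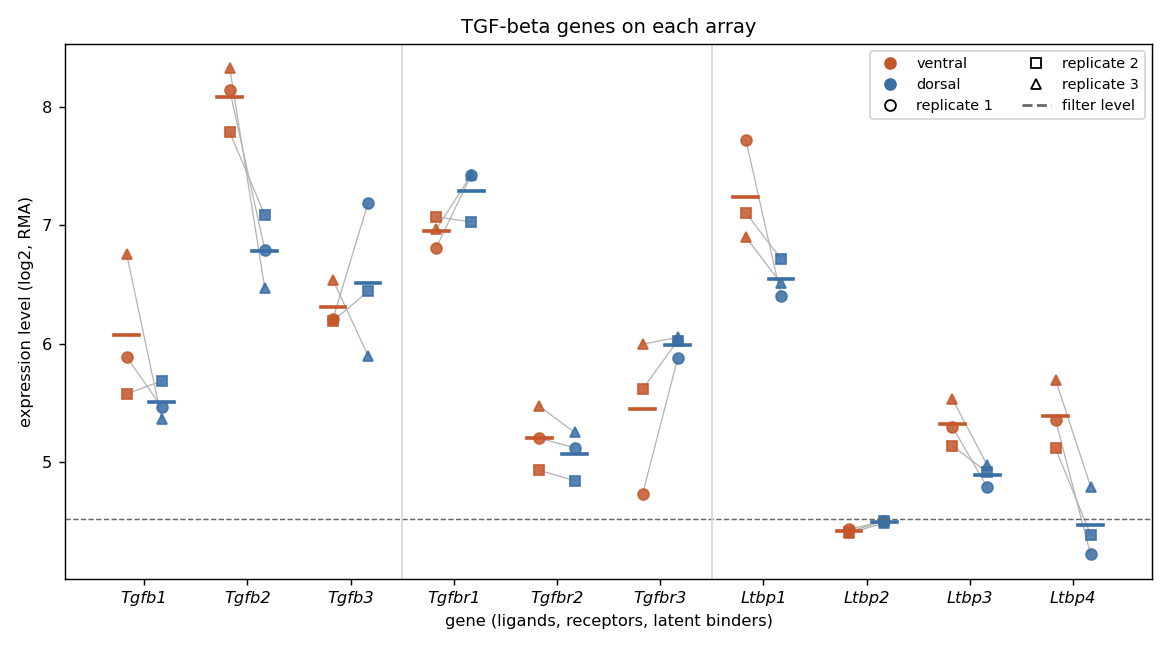
Level (log2, RMA) of each gene on the 3 ventral (left, orange) and 3 dorsal (right, blue) arrays, with marker shape for the replicate number, thin lines joining equal numbers, horizontal bars for means and a dashed line at the filter level of 4.52. Ventral arrays lie above all dorsal arrays for Tgfb2, Ltbp1, Ltbp3 and Ltbp4, and the tissues overlap for Tgfb1, Tgfb3 and the 3 receptors. For Ltbp2, which did not reach the filter level, ventral arrays lie below all dorsal arrays (mean difference −0.08).

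The ligands were also set against each other within each array, which removes effects common to an array. Tgfb2 minus Tgfb3 was 1.93, 1.59 and 1.78 on ventral arrays, against −0.40, 0.64 and 0.57 on dorsal arrays. The tissues did not overlap, and the mean difference between them was 1.50. Tgfb2 minus Tgfb1 averaged 2.00 ± 0.38 in ventral and 1.27 ± 0.16 in dorsal tissue (SD, n = 3 each), also without overlap. Tgfb1 minus Tgfb3 was −0.32, −0.62 and 0.22 on ventral arrays, against −1.72, −0.76 and −0.53 on dorsal arrays, and the tissues overlapped. A two-sided exact permutation test moved the tissue labels freely over the 6 arrays, without the replicate number. This permutation test gave p = 0.10 for each of the 2 pairs with Tgfb2 and p = 0.20 for Tgfb1 and Tgfb3. With 3 arrays against 3 the smallest p this test allows is 0.10, so it could not pass 0.05, and the adjusted values over the 3 pairs were 0.15, 0.15 and 0.20. The pairs were chosen after the data had been seen, and both pairs with Tgfb2 share its values.

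**Figure D2:**
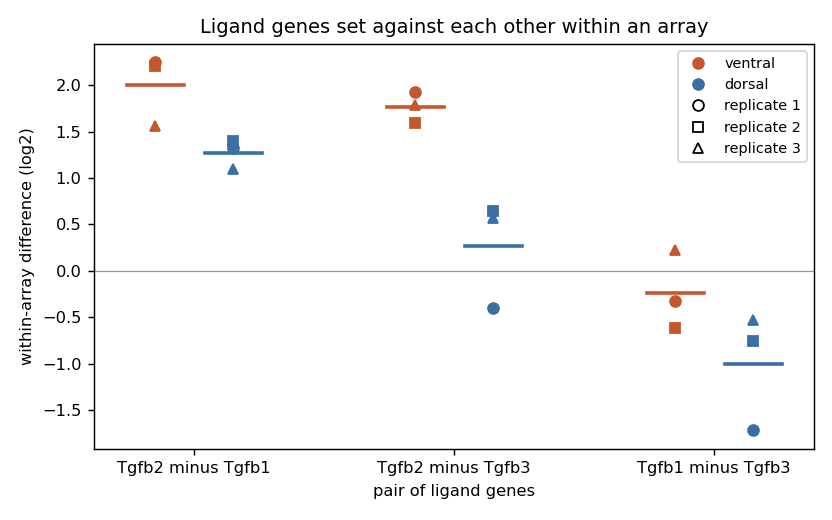
Within-array difference (log2) for each pair of ligand genes on ventral (left, orange) and dorsal (right, blue) arrays, with marker shape for the replicate number and bars for means. Both pairs with Tgfb2 separate the tissues, and the pair of Tgfb1 and Tgfb3 does not.

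None of the 3 receptors separated the tissues. Tgfbr1, the signalling type I receptor also called ALK5, stood at 6.81, 7.07 and 6.97 on ventral arrays, against 7.42, 7.03 and 7.43 on dorsal arrays. Dorsal arrays 1 and 3 lay above all ventral arrays, and dorsal array 2 lay among them. The difference was −0.34 ± 0.20 (SE, 95% interval −0.83 to 0.14; limma adjusted p = 0.629), and it was −0.21 without replicate 1 and −0.54 without replicate 2. Tgfbr2, the type II receptor that binds the ligand first, was at 5.20, 4.93 and 5.47 on ventral arrays, against 5.12, 4.85 and 5.25 on dorsal arrays. The values ran side by side in each number, with a difference of 0.13 ± 0.17 (SE, 95% interval −0.28 to 0.54; limma adjusted p = 0.866). Leaving out single arrays without the block moved it between −0.0065 (without ventral array 3) and 0.26 (without ventral array 2). The interval leaves room for up to a 1.45-fold higher level in ventral tissue and is not evidence of equal levels.

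Tgfbr3, or betaglycan, is a coreceptor that presents ligand, Tgfb2 above all, to Tgfbr2. Its level was 4.74, 5.62 and 6.00 on ventral arrays, against 5.88, 6.03 and 6.05 on dorsal arrays. Ventral array 1 was the lowest of all and ventral array 3 lay inside the narrow dorsal range. Each ventral array was below the dorsal array of its number, by 1.14, 0.41 and 0.06. The ventral minus dorsal difference was −0.54 ± 0.25 (SE, 95% interval −1.13 to 0.05; limma adjusted p = 0.509). It was −0.23 without replicate 1, −0.18 without ventral array 1 and without the block, and −0.81 without ventral array 3 and without the block. This was the lowest difference among the tested members.

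The latent binder Ltbp4 is a microfibril-associated protein that binds latent Tgfb1 and takes part in elastic fibre assembly. Its level was 5.36, 5.12 and 5.70 on ventral arrays, against 4.22, 4.39 and 4.80 on dorsal arrays. All ventral arrays lay above the dorsal ones, and the pairs differed by similar amounts (1.13, 0.73 and 0.90). The difference was 0.92 ± 0.18 (SE, 95% interval 0.49 to 1.36; limma adjusted p = 0.121). Without the block the standard error was 0.22 and limma's adjusted p was 0.180. Ltbp4 passed the filter on its mean over both tissues (4.93), to which the ventral arrays contributed most. The dorsal mean of 4.47 ± 0.29 lay below the filter level, near which arrays compress differences, so that the 1.89-fold difference is that of the deposited values and no exact ratio of transcript.

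Ltbp1, the first described binder of latent TGF-beta, was at 7.72, 7.10 and 6.90 on ventral arrays, against 6.41, 6.72 and 6.51 on dorsal arrays. The tissues did not overlap, but ventral array 3 lay close to dorsal array 2, and pair 1 (1.31) differed far more than pairs 2 and 3 (0.39 each). The difference was 0.70 ± 0.24 (SE, 95% interval 0.12 to 1.28; limma adjusted p = 0.363), and it was 0.39 without replicate 1 and 0.46 without ventral array 1 and without the block. Smooth muscle and pericyte markers had summed linear levels of 3659, 1966 and 1248 on ventral arrays 1 to 3, against 940, 1161 and 719 on dorsal arrays 1 to 3. That sum was highest on ventral array 1 and lowest among ventral arrays on array 3, as were Ltbp1 and the contractile genes Myh11, Acta2, Tagln, Cnn1 and Myl9, but the other markers did not have this order, the pericyte genes Rgs5 and Abcc9 among them (7.94, 8.91 and 7.75 for Rgs5, and 6.14, 6.04 and 6.54 for Abcc9). Of these 13 markers 12 were tested, 11 had positive differences and 1 was called higher in ventral tissue, the pericyte gene Rgs5 (2.18 ± 0.24, limma adjusted p = 0.0258; 0.0732 without the block and 0.0675 without replicate 3). Tgfb2 was highest on ventral array 3, where the smooth muscle sum was lowest among ventral arrays but Abcc9 was highest. The part of smooth muscle cells in the Ltbp1 and Tgfb2 values was not tested. In tissue pieces, a different share of cells of one type and a different amount of transcript per cell cannot be told apart.

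Ltbp3, which binds latent TGF-beta and is known from skeletal and tooth growth, was at 5.30, 5.14 and 5.54 on ventral arrays, against 4.79, 4.92 and 4.97 on dorsal arrays. The tissues did not overlap, by a narrow margin at ventral array 2. The difference was 0.43 ± 0.18 (SE, 95% interval 0.00 to 0.86; limma adjusted p = 0.462). Ltbp2, a family member that does not bind latent TGF-beta, was below the filter with a mean of 4.46. Its level was 4.44, 4.42 and 4.40 on ventral arrays, against 4.51 on dorsal arrays 1 and 2 and 4.49 on dorsal array 3. The ventral arrays lay below the dorsal ones by 0.08 in the mean, at a level where the arrays hold little signal. In a fit with no filter over 24015 genes the Ltbp2 difference was −0.08 ± 0.13 (SE, limma adjusted p = 0.937).

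**Figure D3:**
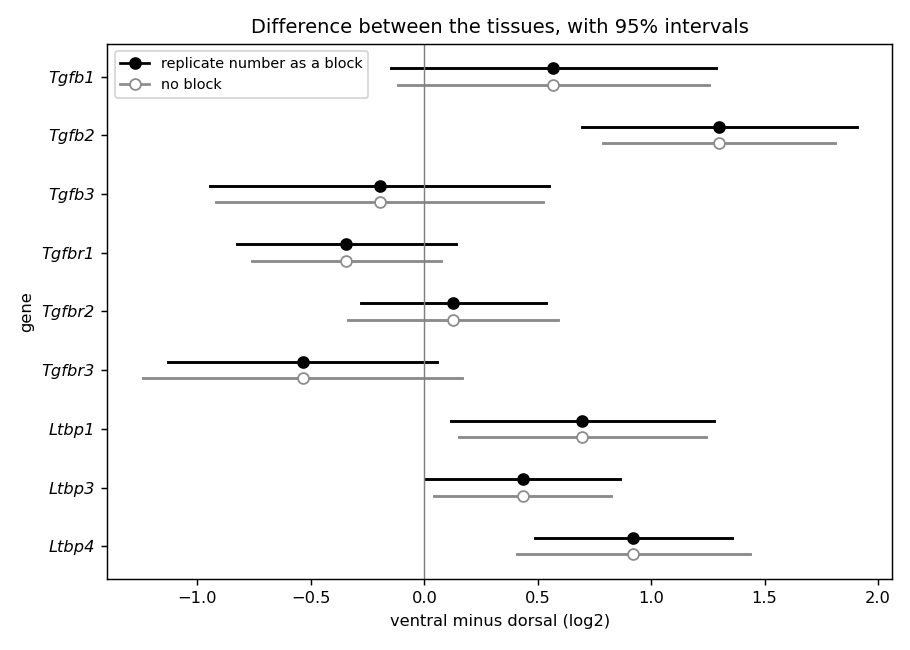
Ventral minus dorsal difference (log2) of the 9 tested genes, as points with 95% intervals, from the fit with the replicate number as a block (black) and without a block (grey). The intervals are not adjusted for the number of genes. Those of Tgfb2, Ltbp1, Ltbp3 and Ltbp4 lie above 0 in both fits.

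Genes that act around the members were counted from lists of the pathway. Among proteins that hold or activate latent TGF-beta, 23 of 24 were on the array by symbol and 20 were tested, with 19 positive differences, a median of 0.31 and 0 passing in limma (also 0 without the block). In 5 of the 20 the ventral arrays lay above all dorsal arrays and in 0 below, against 7.5% and 7.88% of all genes tested. Of all genes tested, 47.7% had positive differences. Plat, the tissue plasminogen activator, differed by 1.06 ± 0.24 (limma adjusted p = 0.168) and Emilin1, a matrix glycoprotein that restrains processing of the TGF-beta precursor, by 0.98 ± 0.18 (limma adjusted p = 0.109). At the other end stood the transglutaminase Tgm2 (−0.15 ± 0.18) and Adamtsl2 (0.03 ± 0.17), a secreted binder of Ltbp1.

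Among accessory receptors and ligand traps, 12 of 16 were tested, and 9 had positive differences with a median of 0.28. Ventral arrays lay above all dorsal arrays for 4 of the 12 and below for 0, against 7.5% and 7.88% of all genes tested. In limma 1 gene passed. This was Dcn, decorin, a proteoglycan that binds TGF-beta, which was higher in ventral tissue. Its level was 8.48, 8.67 and 9.57 on ventral arrays, against 6.81, 6.78 and 6.71 on dorsal arrays, a 4.40-fold difference (2.14 ± 0.26, limma adjusted p = 0.0357, and 0.0232 without the block). Without replicate 3 it did not pass (limma adjusted p = 0.0504). The dorsal arrays were nearly level, and ventral array 3 was the highest. Bambi, a pseudoreceptor that dampens signalling (0.93 ± 0.21, limma adjusted p = 0.168), and Bgn, biglycan (0.84 ± 0.17, limma adjusted p = 0.141), did not pass, though their ventral arrays lay above the dorsal ones. A2m, a protease inhibitor that traps TGF-beta, had a difference of −0.17 ± 0.37 and Vasn one of −0.15 ± 0.18.

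All 15 listed Smads and transcriptional partners were tested, and 0 passed in limma with or without the block. They had 7 positive and 8 negative differences with a median of −0.01. No overlap of the tissues was seen for 1 of the 15, against 15.4% of all genes tested. The corepressors Skil (0.38 ± 0.23) and Ski (0.38 ± 0.26) had the highest differences, and Foxh1 (−0.37 ± 0.26) and Trim33 (−0.15 ± 0.17) the lowest. Of 16 genes of feedback and receptor turnover, all tested, 7 had positive and 9 negative differences, with a median of −0.10. In 3 the ventral arrays lay below all dorsal arrays (Wwp2, Nedd4l and Zfyve9), and in 1 above (Smad7). These shares were 7.88% and 7.5% of all genes tested. In limma 1 gene passed. Wwp2, a ubiquitin ligase that targets Smads, was 5.24, 5.99 and 5.21 on ventral arrays, against 7.83, 8.02 and 6.61 on dorsal arrays. It was lower in ventral tissue (−2.01 ± 0.25, limma adjusted p = 0.0390), and it did not pass without the block (0.0992), without replicate 1 (0.0554) or without replicate 2 (0.0601). Nedd4l, another ligase of that family, had a difference of −1.06 ± 0.20 (limma adjusted p = 0.117, and 0.0650 without the block). The receptor anchor Zfyve9 had one of −0.35 ± 0.19. The inhibitory Smads had the highest differences of this list, with 0.77 ± 0.18 for Smad6 (limma adjusted p = 0.189) and 0.76 ± 0.17 for Smad7 (limma adjusted p = 0.168). Smad7 is induced by TGF-beta and blocks its receptors.

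Of 26 genes known to respond to TGF-beta in other cells, 25 were on the array by symbol and 24 were tested. They had 19 positive differences and a median of 0.37, and 0 passed in limma with or without the block. In 7 of the 24 the ventral arrays lay above all dorsal arrays and in 0 below, against 7.5% and 7.88% of all genes tested. The share of positive differences over all genes tested was 47.7%. Cnn1, calponin, had the highest difference (2.79 ± 0.50, limma adjusted p = 0.100, and 0.199 without the block). It passed without replicate 1 (0.0290) and without replicate 2 (0.0383). Next came the matrix gene Postn, periostin (1.77 ± 0.26, limma adjusted p = 0.0631, and 0.205 without the block). Cnn1 stood at 9.82, 7.91 and 6.83 on ventral arrays, against 5.36, 6.15 and 4.68 on dorsal arrays. Cnn1, Acta2 and Tagln of this list are also among the smooth muscle markers summed above. No direction of response was set for the genes of the list. At the lower end were Snai1 (−0.46 ± 0.32) and Angptl4 (−0.12 ± 0.17).

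**Figure D4:**
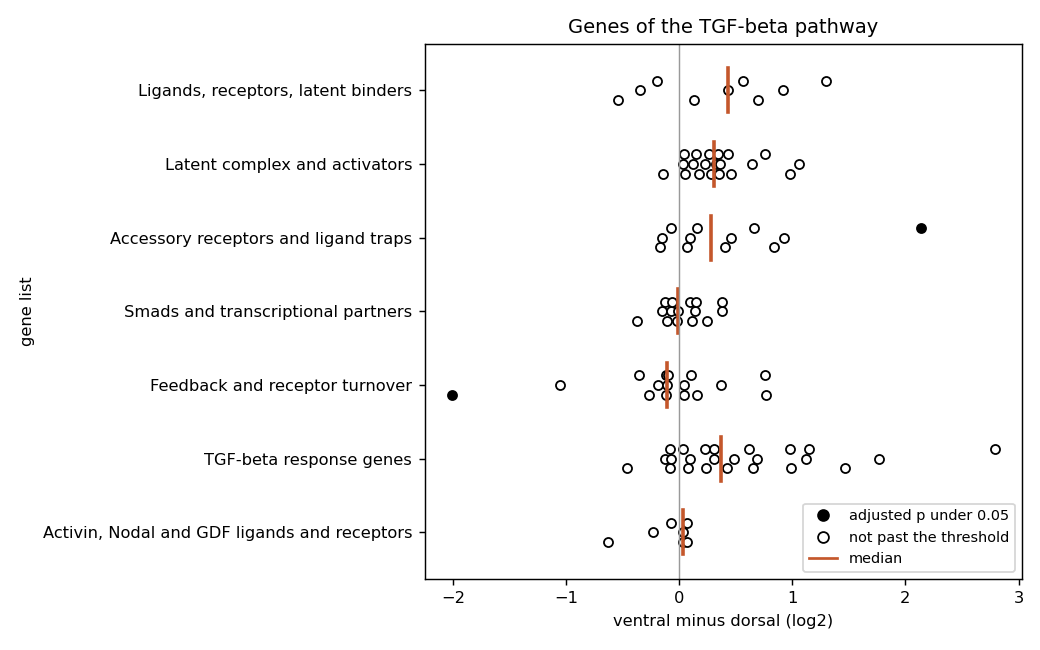
Ventral minus dorsal difference (log2) of each tested gene, by list, with filled points for an adjusted p under 0.05 and orange bars for list medians. Dcn and Wwp2 are the filled points, and the medians run from −0.10 for feedback and receptor turnover to 0.43 for the ligands, receptors and latent binders.

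By their pattern over the 6 arrays, the genes most like Tgfb2 were Gpc6 (Pearson r = 0.995), Sparc (0.993), Cobl (0.986), Cdh11 (0.985) and Parvb (0.984). They are the 5 highest of 11232 genes, after predicted genes, clone names and the members themselves had been left out, the 6 points fall into 2 tissues, and the values are a description. Gpc6 encodes a cell surface glypican, Sparc a collagen-binding matrix protein, Cobl an actin nucleator, Cdh11 a mesenchymal cadherin and Parvb an integrin-linked adaptor. Cobl had a ventral minus dorsal difference of 1.28 ± 0.20 (limma adjusted p = 0.0715, and 0.0336 without the block). The other 4 had differences of 0.54 to 0.75.

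Marker lists were read on the same arrays. All 10 tested sclerotome and cartilage genes had negative differences, and 4 were called lower in ventral tissue (Pax1, Col2a1, Chad and Clec3a). Col2a1 did not pass without replicate 1 or 2 (limma adjusted p = 0.0513 and 0.0557), and the other 3 passed without each replicate number. The summed linear level of all 13 markers of this list, 3 of them below the filter, was 448 to 539 on ventral arrays, against 1093 to 1540 on dorsal arrays. All 7 tested genes of coelomic epithelium and gonadal ridge had positive differences, with 1 called (Tcf21), and their sum with the 4 markers below the filter was 615 to 1192 on ventral arrays, against 238 to 458 on dorsal arrays. Among those 4 was Emx2, named after its values were seen, which stood at 3.62, 3.23 and 3.24 on ventral arrays, against 5.01, 3.66 and 7.98 on dorsal arrays. Without Emx2 the sum was 603 to 1182 on ventral arrays, against 205 to 259 on dorsal arrays. The called Chad, Clec3a and Tcf21 had a mean below the filter level in the tissue where they were lower and passed the filter through the other. Erythroid markers (10 of 12 on the array) summed to 9354 to 10526 on ventral arrays, against 12323 to 13940 on dorsal arrays. This linear sum rests mostly on the globins Hbb-y, Hbb-bh1 and Hba-x (log2 means 12.3, 11.7 and 11.3, against 7.10 or less for the others). All 10 differences were negative and 0 were called, with that of Tfrc the smallest (−0.04). The sums for notochord and for sympathoadrenal and neural crest cells overlapped. The part of these cells in the values of the ligands, receptors and latent binders was not tested.

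**Figure D5:**
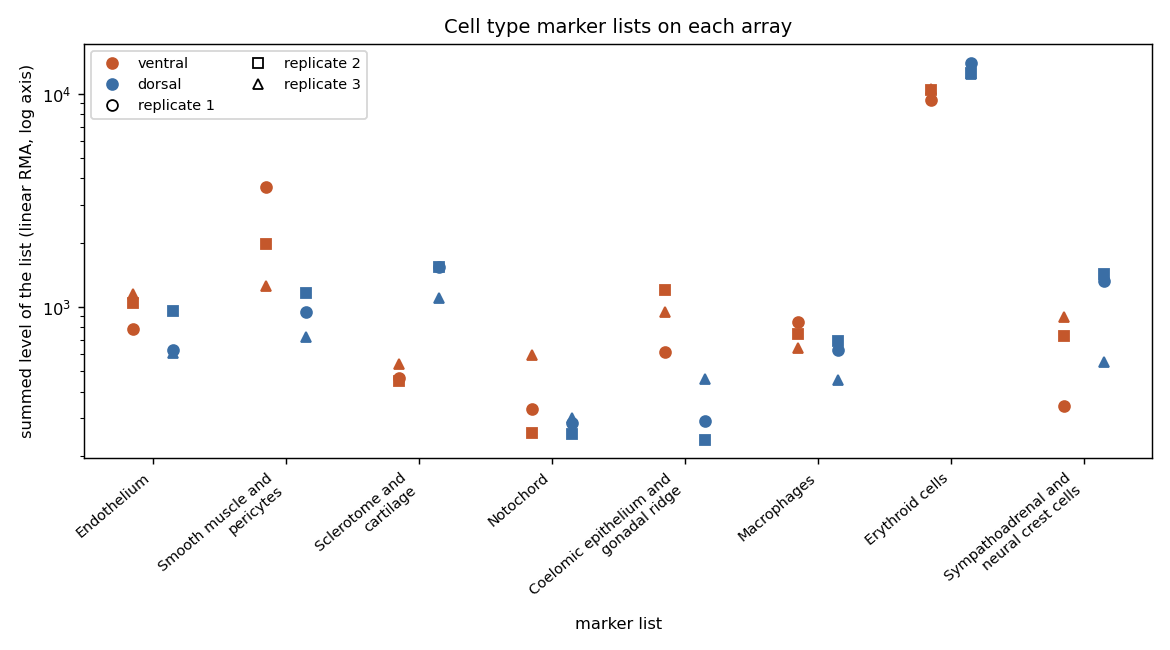
Summed level (linear RMA values, log axis) of each marker list on ventral (left, orange) and dorsal (right, blue) arrays, with marker shape for the replicate number. Smooth muscle and coelomic sums are higher on all ventral arrays, sclerotome and erythroid sums on all dorsal arrays, and the other lists overlap.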

How the data were processed

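RNA of 3 ventral and 3 dorsal samples was amplified from picogram amounts by a single-primer method, per the labels' protocols, which can distort ratios of weak transcripts. The deposited values are log2 levels, 1 per gene and array, made with Affymetrix Expression Console and RMA (background correction, quantile normalization and probe summary) per the submitters' processing notes. The genome build is not given in the sources used here. Array medians were 4.49 to 4.55, and arrays correlated by 0.956 to 0.976 across genes.

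The ventral minus dorsal contrast came from limma 3.58.1 in R 4.3.3 (lmFit, eBayes without a trend, two-sided, Benjamini-Hochberg) over the 12028 genes with 1 symbol in the platform table and a mean of at least 4.52, the median of all rows. The same genes were kept where arrays were left out. Each test had 6.41 degrees of freedom. Standard errors are moderated ones, and SD is taken over 3 arrays. The replicate number was a fixed block. The labels say both tissues came from the same embryos, but not that equal replicate numbers mark the same embryos. As a check, each array's deviation from its tissue mean was correlated with that of the same number in the other tissue (0.0992, 0.0763 and 0.226). For other numbers the values were −0.153 to 0.0805, so the ranges overlapped. Deviations within a tissue sum to 0, which ties these values to each other, and the check cannot decide the pairing. With the block as a random effect, limma's correlation between arrays of equal number was 0.0557. Fits without the block stand beside calls that turn on it and beside some results near the threshold.

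The members and lists were chosen with earlier results of these data known. Named were all members, list genes past the threshold, the 2 highest and 2 lowest other genes of each list, and the 5 genes most correlated with the member of lowest p, leaving out predicted genes and clone names. The ligand pairs were added after the data had been seen. The number of arrays limits the precision.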

Additional observations from a re-analysis of the deposited data

How the results depend on the processing

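None of the 9 tested members passed under any of 17 alternatives, which changed the block, the filter, the scaling, the eBayes trend or the arrays used. Of 152 member values 149 kept their direction. The exceptions were Tgfb3 without replicate 1 (0.19) and, without the block, without dorsal replicate 1 (0.14; lowest value without a replicate −0.61), and Tgfbr2 without ventral replicate 3 and without the block (−0.0065). The adjusted p of Tgfb2 ran from 0.0577 (replicate block as a random effect) to 0.279, and that of Ltbp4 from 0.116 to 0.451 over 16 alternatives, since the filter at the 60th percentile left Ltbp4 out. Over the 8 members kept by that filter the median difference was 0.28. The median member difference was 0.16 to 0.54 without each replicate number in turn, and 0.23 to 0.53 without each array and without the block. Over all genes, 62 passed with the replicate block and 59 without it, 10 without the filter and 94 with an eBayes trend. Leaving out pairs gave 48 to 75. Without the block, leaving out ventral array 1, 2 or 3 gave 104, 13 and 18 genes, and leaving out dorsal array 1, 2 or 3 gave 12, 23 and 40. Of the pathway lists, 2 genes passed in the main comparison (Dcn and Wwp2), 1 without the block or with it as a random effect (Dcn for both), 0 without the filter, and 5 with a trend (Dcn, Wwp2, Bgn, Col1a1 and Postn). Without replicate 1, 2 or 3 the counts were 2 (Dcn and Cnn1), 3 (Dcn, Cnn1 and Postn) and 1 (Wwp2), and neither Dcn nor Wwp2 passed in each of these fits. Without single arrays and the block they were 0 to 3. The cause of these moves was not tested. Within-array differences of ligand pairs kept their sign under all 12 alternatives run for them. Among these, the shift of arrays to the same median cannot change a within-array difference.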

Other observations

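Genes listed for the related activin, nodal and growth differentiation factor branch, with Amh and Amhr2 among them, mostly lay at low levels. Activins and nodal share Smad2 and Smad3 with TGF-beta. Of 18 listed ligands and receptors 16 were on the array by symbol and only 7 were above the filter. In limma 0 of the 7 passed with or without the block, 4 had positive and 3 negative differences, and the median was 0.03. The activin type II receptor Acvr2a had the lowest difference, with levels of 6.19, 6.55 and 6.81 on ventral arrays, against 7.10, 6.75 and 7.57 on dorsal arrays. Its tissues overlapped at dorsal array 2, and the difference was −0.62 ± 0.21 (limma adjusted p = 0.348). Acvr2b, the other type II receptor, differed by −0.23 ± 0.20, and the ligand genes Gdf10 and Nodal by 0.07 ± 0.30 and 0.07 ± 0.18.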
